A study of Mus musculus with 4 samples.

Results

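LIF, JAK and STAT3 signalling was followed through 9 genes: the ligand Lif, the receptor chains Lifr and Il6st, the kinase Jak1, the transcription factor Stat3, the feedback inhibitors Socs2 and Socs3, and the serine/threonine kinases Pim1 and Pim3. The members were all probe sets whose only annotated gene symbol was one of these names, which gave 30 of the 34945 probe sets with a single symbol and 9 of 18193 genes. Transcript levels of mouse embryonic stem cells were read on Affymetrix arrays, with 2 arrays of Suz12KO cells and 2 arrays of WT cells. Suz12KO is the label for a knockout of Suz12, which encodes a Polycomb repressive complex 2 subunit. Each genotype was represented by RNA from 3 clones, extracted separately and mixed in equal amounts into a single sample. The arrays of a genotype may therefore be repeats of the same mix, so p-values measure the spread between these arrays, which may be technical. No other allele, treatment or age is labelled, and the sources used here do not give the culture medium, added LIF or feeder cells.

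LIF is a cytokine of the interleukin-6 family that keeps mouse embryonic stem cells undifferentiated in culture. It binds the LIF receptor, which pairs with gp130, the product of Il6st. Janus kinases bound to these chains phosphorylate STAT3, which enters the nucleus and activates its targets. Socs3 is a STAT3 target whose product blocks the receptor complex, and the Pim kinases are also induced by STAT signalling.

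The deposited values are linear signals, scaled by the authors to the same trimmed mean in every array. Median signal per array was 202 and 191 in Suz12KO and 175 and 171 in WT, and having so few arrays sets the precision. Bacterial spike probe sets that read low throughout reached 195 and 174 in the Suz12KO arrays and 141 and 191 in the WT arrays, and a signal at or under that of its own array is called within background below. Suz12 itself read 217 and 369 in Suz12KO, above background, and 1097 and 1094 in WT. The log2 fold change was -1.89 (limma adjusted p = 0.0021), and averaging its probe sets gave -1.67 (adjusted p = 0.0602). Embryonic stem cell markers were present in both genotypes, and 10 of 10 rose in Suz12KO, beside 4.48% of all tested genes (summed signal 122555 and 125581 in Suz12KO, 69241 and 68732 in WT), among them Dppa5a by 0.98 and Tdgf1 by 0.39 on the log2 scale. After centring on the array median 7 of the 10 passed, and Tdgf1, at 0.22, did not (limma adjusted p = 0.171). Of 14 fibroblast markers with a probe set, a list included because fibroblasts can serve as feeder cells, 10 were bright enough to test, 5 fell, beside 5.50% of all tested genes, and none rose; 3 fell when probe sets were averaged per gene. Their summed signal was 4691 and 3877 in Suz12KO, against 14003 and 14797 in WT, with log2 fold changes of -2.34 for Thbs1 and -2.58 for Col1a1. Thy1 (0.41) and Loxl1 (0.13) went the other way and did not pass. Dcn, Lum, Pdgfrb and Postn were too dim to test, and Pdgfra and Twist2 were within background in both Suz12KO arrays. The part of the stem cell and fibroblast markers in the results below was not tested. In RNA from whole cultures, fewer cells of a type and less RNA per cell cannot be told apart.

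Each gene was read from its brightest probe set, and all 9 members passed the filter on dim genes. Pim1 and Socs2 fell in Suz12KO and Pim3 and Socs3 rose, while Lif, Lifr, Il6st, Jak1 and Stat3 did not pass the test (limma, adjusted p under 0.05). The 4 called members changed by 0.34 to 0.53 on the log2 scale, and the median log2 fold change of the 9 was 0.14, beside 0.04 over all 12735 tested genes. Of all tested genes, 9.97% were called, 4.48% higher and 5.50% lower, against 2 members higher and 2 lower. The members are mostly bright, and among genes above the 50th percentile of mean level 15.8% were called. When arrays were centred on their medians, the median over all genes became -0.13, and the calls over all genes were 294 higher and 1243 lower in place of 570 and 700. The genotypes' arrays did not overlap for 7 of the 9 members, 5 with Suz12KO above and 2 with it below, against 52.9% of all tested genes, 29.0% above and 23.9% below. After centring neither rise among the members passed, while both falls did.

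**Figure D1:**
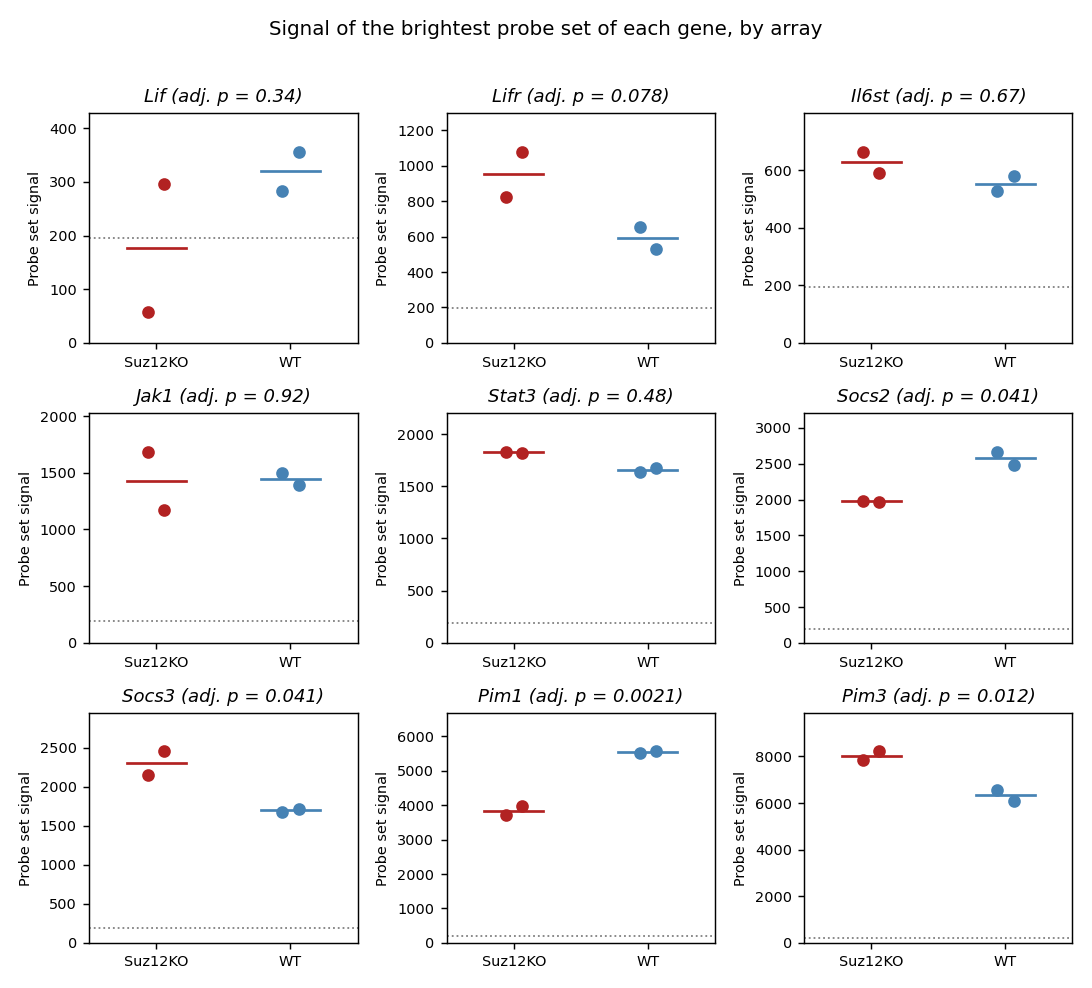
Probe set signal (linear, starting at 0) of the brightest probe set of each of the 9 genes, with 2 points per genotype for the arrays, a line at their mean and a dotted line at the highest unused spike of any array (195). The Suz12KO points of Pim1 and Socs2 lie below both WT points, those of Lifr, Il6st, Stat3, Socs3 and Pim3 lie above them, and those of Lif and Jak1 overlap with WT.

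The ligand was close to the limit of detection. The brighter Lif probe set (1421207_at) read 57.2 and 297 in Suz12KO and 284 and 356 in WT. Of these 4 readings, Suz12KO replicate 1 lay within background, and the genotypes overlapped. The log2 fold change was -1.14 (SE 0.66, limma adjusted p = 0.344), with a 95% interval of -2.63 to 0.35. Without Suz12KO replicate 2 it was -2.19 and passed (adjusted p = 0.0440), but the only Suz12KO reading left was then the one within background; without Suz12KO replicate 1 it was -0.09. The dimmer Lif probe set read 35.7 and 38.8 in Suz12KO and 42.7 and 41.1 in WT, all within background.

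Among the receptor chains, Lifr had the larger difference. This subunit, which gives the receptor its specificity for LIF, read 826 and 1079 in Suz12KO against 653 and 529 in WT (1454984_at). Both Suz12KO arrays lay above both WT arrays, and the mean was 953 ± 179 in Suz12KO and 591 ± 87.8 in WT (SD, n = 2 each). The log2 fold change of 0.67 (SE 0.21, 95% interval 0.20 to 1.14) did not pass over all genes (limma adjusted p = 0.0783). It passed without Suz12KO replicate 1 (0.86, adjusted p = 0.0473), while it was 0.48 without Suz12KO replicate 2 (adjusted p = 0.266), 0.52 without WT replicate 2 (adjusted p = 0.304) and 0.50 after centring (adjusted p = 0.170). A second Lifr probe set read 213 and 186 in Suz12KO, just above background, and 105 and 51.9 in WT, within background. Its Suz12KO signal was 1.21-fold the background level of the WT arrays. The difference did not pass (limma adjusted p = 0.342 among all probe sets, 95% interval -0.24 to 2.73 on the log2 scale). The last Lifr probe set was within background in every array, at 138 and 40.0 in Suz12KO and 46.2 and 14.9 in WT.

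Il6st, the signal-transducing chain shared by several receptors of the cytokine family, read 664 and 591 in Suz12KO and 528 and 578 in WT (1452843_at). The genotypes did not overlap, but the gap between the nearest arrays was small, and the log2 fold change of 0.18 (SE 0.21, limma adjusted p = 0.674) did not pass. Its 95% interval, -0.29 to 0.65, leaves room for a change in either direction. A second Il6st probe set read 699 and 591 in Suz12KO and 499 and 562 in WT (0.27, adjusted p = 0.537), and the remaining pair gave 0.04 and 0.11. None of the 4 passed.

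The kinase that starts the intracellular cascade showed no difference beyond the spread between arrays. Jak1 read 1687 and 1169 in Suz12KO and 1499 and 1394 in WT (1433805_at), so that the Suz12KO arrays enclosed the WT arrays. The log2 fold change was -0.04 (SE 0.17, limma adjusted p = 0.923, 95% interval -0.43 to 0.35), and 0.02 under quantile normalization. A second Jak1 probe set was lower in both Suz12KO arrays (625 and 598, against 923 and 656 in WT) with a log2 fold change of -0.34 that did not pass (adjusted p = 0.434). A dimmer one read 144 and 236 in Suz12KO and 178 and 225 in WT.

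Stat3, the transcription factor at the end of the cascade, differed by little and in opposite directions by probe set. The brightest (1426587_a_at) read 1833 and 1818 in Suz12KO and 1632 and 1676 in WT. Both Suz12KO values were higher, with a log2 fold change of 0.14 (SE 0.11, limma adjusted p = 0.478) that became -0.03 after centring on the array median. The next, 1460700_at, read 1408 and 1324 in Suz12KO and 1451 and 1655 in WT, a log2 fold change of -0.18 (adjusted p = 0.491 among all probe sets). A further, dim probe set read 213 and 392 in Suz12KO, above background, and 59.5 and 163 in WT, within it. Its Suz12KO signal was 1.76-fold that background. The difference did not pass either (adjusted p = 0.242, 95% interval 0.03 to 2.76 on the log2 scale). The last was within background in every array.

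**Figure D2:**
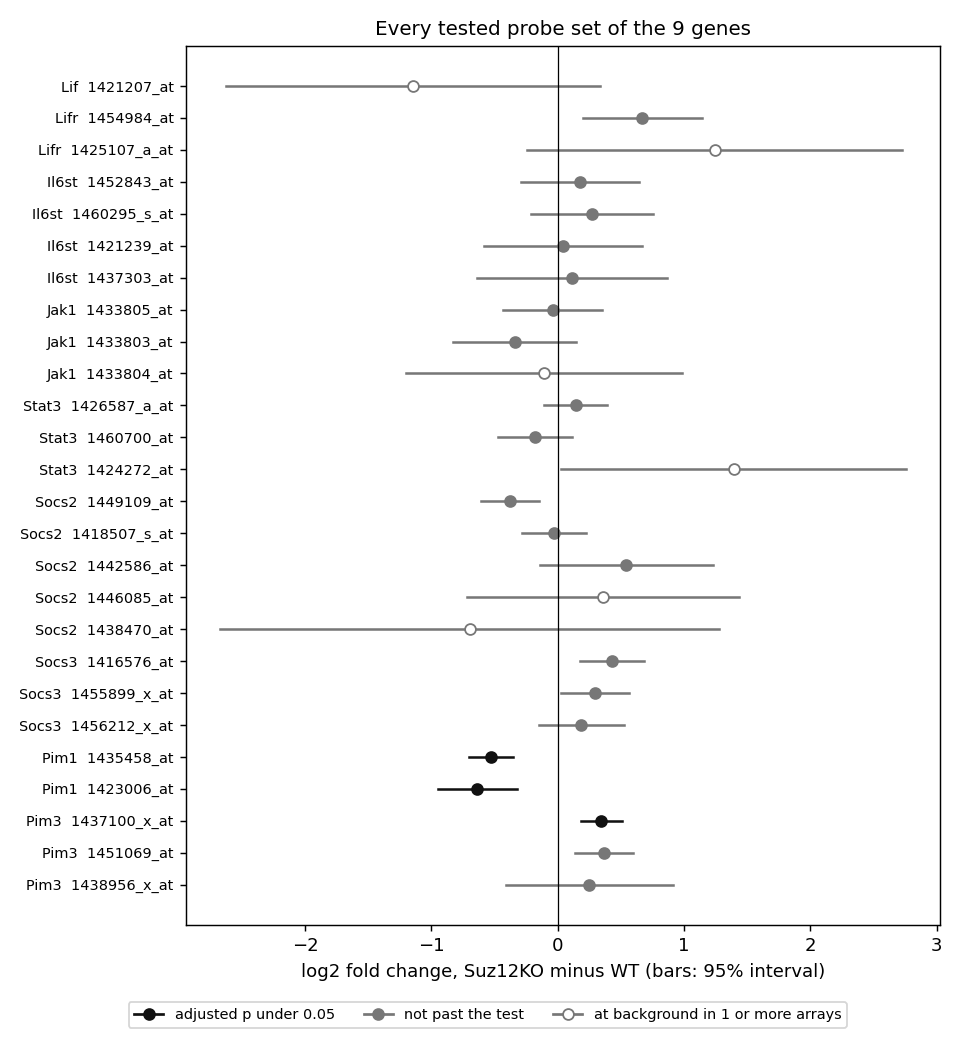
Log2 fold change (Suz12KO minus WT) of the 26 tested probe sets of the 9 genes, ordered by gene and then by brightness, with 95% intervals from the fit over 24461 probe sets. Both Pim1 probe sets and the brightest of Pim3 have an adjusted p under 0.05, and open points, with wide intervals, mark probe sets within background in at least 1 array.

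On their brightest probe sets, the feedback inhibitors moved in opposite directions. Socs3, which shuts off the gp130 receptor complex, rose: it read 2146 and 2452 in Suz12KO and 1681 and 1721 in WT (1416576_at). The mean was 2299 ± 216 in Suz12KO and 1701 ± 27.9 in WT (SD, n = 2 each). The log2 difference was 0.43 (SE 0.11, limma adjusted p = 0.0406). A second Socs3 probe set was also higher in both Suz12KO arrays (2124 and 1886, against 1564 and 1696 in WT), with a log2 fold change of 0.29 that did not pass among all probe sets (adjusted p = 0.202). On the last, 1439 and 1875 in Suz12KO overlapped with 1381 and 1504 in WT (0.19). The Socs3 call was lost without Suz12KO replicate 2 or either WT array (adjusted p 0.122 to 0.163), after centring (0.26, adjusted p = 0.233) and with the mean of its probe sets (0.30, adjusted p = 0.164). Testing dim genes as well ended the call (adjusted p = 0.0529) and so did testing among all probe sets (adjusted p = 0.0581).

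Socs2, which is known mainly as an inhibitor of growth hormone signalling through STAT5, fell on its brightest probe set. That probe set (1449109_at) read 1983 and 1965 in Suz12KO and 2672 and 2478 in WT, with means of 1974 ± 12.9 in Suz12KO and 2575 ± 137 in WT (SD, n = 2 each). The log2 fold change was -0.38 (SE 0.10, limma adjusted p = 0.0409). A second Socs2 probe set of similar brightness, whose suffix marks one that can detect related transcripts, did not share the difference: 2088 and 1914 in Suz12KO overlapped with 1930 and 2151 in WT (-0.03, adjusted p = 0.928), and quantile normalization turned it to 0.02. Another was higher in both Suz12KO arrays, at 392 and 431 against 296 and 259 in WT (0.54, adjusted p = 0.370). The others lay within background in at least 1 array. The Socs2 call was lost on leaving out each array in turn (adjusted p 0.0909 to 0.223), under quantile normalization (-0.33, adjusted p = 0.0709) and among all probe sets (adjusted p = 0.0596). With the mean of all 6 probe sets, of which several were dim, the log2 fold change was -0.04 (adjusted p = 0.954).

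Pim1 had the firmest call of the 9 genes. This kinase, which promotes survival and growth, read 3717 and 3969 in Suz12KO and 5532 and 5565 in WT (1435458_at). The mean was 3843 ± 178 in Suz12KO and 5548 ± 23.2 in WT (SD, n = 2 each), which is 0.69 of the WT level. The log2 difference was -0.53 (SE 0.07, limma adjusted p = 0.0021). The second Pim1 probe set fell as well, at 1029 and 917 in Suz12KO against 1535 and 1500 in WT. Its log2 fold change was -0.64 (SE 0.14, adjusted p = 0.0246 among all probe sets). The Pim1 call on the brightest probe set held without each of the 4 arrays and in 15 of 16 alternatives, the exception being a fit without a mean-variance trend, in which limma called 0 of all genes, with 2332 at an unadjusted p under 0.05. The second probe set lost its call without Suz12KO replicate 2 or either WT array (adjusted p 0.0730 to 0.107).

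Pim3, a paralog of Pim1, rose. Its brightest probe set (1437100_x_at) read 7836 and 8213 in Suz12KO and 6541 and 6107 in WT. The mean was 8025 ± 267 in Suz12KO and 6324 ± 307 in WT (SD, n = 2 each). The log2 difference was 0.34 (SE 0.07, limma adjusted p = 0.0122). A second probe set without a cross-detection suffix gave nearly the same value: 3006 and 2827 in Suz12KO against 2371 and 2147 in WT, or 0.37 on the log2 scale (adjusted p = 0.0665 among all probe sets). On the last, 514 and 532 in Suz12KO lay within the WT readings of 334 and 571. The Pim3 call was lost without Suz12KO replicate 2 (adjusted p = 0.0509) or WT replicate 2 (adjusted p = 0.0921), with suffix-free probe sets only (0.37, adjusted p = 0.0502), after centring (0.18, adjusted p = 0.234) and with the mean of its probe sets (0.32, adjusted p = 0.130).

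Of the 26 tested member probe sets, 3 were called, 1 higher and 2 lower, beside 6.81% of all 24461, 2.82% higher and 3.99% lower. These were both Pim1 probe sets and 1 of Pim3. The genotypes' arrays did not overlap for 16 of the 26, 11 with Suz12KO above and 5 below, against 26.3% above and 23.7% below among all tested probe sets. The 4 untested member probe sets belong to Lif, Lifr, Stat3 and Socs2 and were within background in every array.

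Promoter sequence is shown for Socs3, the member whose window held a STAT-type palindrome, and for Pim1 and Pim3, the paralogs that moved in opposite directions. RefSeq windows of GRCm38.p6 running from 250 bases before to 50 after an annotated start were matched for 8 of the 9 members (10 windows), and the 250 bases before the start are given 5′ to 3′. In Socs3 the capitals mark the match to TTCNNNGAA, and in Pim1 and Pim3 they mark CG dinucleotides, since mammalian Polycomb sites are typically rich in them.
Socs3, chr11:117969367-117969616, strand -: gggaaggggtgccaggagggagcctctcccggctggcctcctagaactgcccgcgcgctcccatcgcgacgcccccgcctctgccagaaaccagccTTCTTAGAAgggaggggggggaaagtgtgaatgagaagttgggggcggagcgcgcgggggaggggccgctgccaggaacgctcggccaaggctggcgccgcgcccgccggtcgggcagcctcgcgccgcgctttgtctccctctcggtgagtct
Pim1, chr17:29490535-29490784, strand +: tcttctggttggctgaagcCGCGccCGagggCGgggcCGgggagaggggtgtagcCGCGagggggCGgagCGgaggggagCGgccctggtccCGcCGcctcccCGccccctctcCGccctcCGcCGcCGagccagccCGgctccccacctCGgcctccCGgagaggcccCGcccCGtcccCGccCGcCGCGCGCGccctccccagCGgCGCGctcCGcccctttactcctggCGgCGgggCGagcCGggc
Pim3, chr15:88861944-88862193, strand +: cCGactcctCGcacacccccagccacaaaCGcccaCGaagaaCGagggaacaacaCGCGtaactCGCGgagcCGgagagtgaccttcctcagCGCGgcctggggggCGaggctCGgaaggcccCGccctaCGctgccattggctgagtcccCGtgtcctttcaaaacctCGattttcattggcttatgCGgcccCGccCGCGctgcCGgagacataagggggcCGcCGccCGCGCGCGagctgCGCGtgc

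The pattern TTCNNNGAA reads the same on both strands. It was found in 1 of the 10 member windows, as TTCTTAGAA beginning 154 bases before the Socs3 start used by the table, which lies 970 bases inside the annotated gene. Of all 32851 windows, 8.30% held it. The narrower TTCCNGGAA, whose matches all meet the first pattern too, was searched the same way and was in 0 of the 10 and in 1.15% of all windows. The window at the first Pim1 start held 42 CG dinucleotides and that of Pim3 held 40, beside a median of 7.0 over all windows, and their observed-to-expected CG ratios were 0.847 and 1.12 against a median of 0.384. The window at the second Pim1 start held 5 CG dinucleotides, with a ratio of 0.278. The ratio was 1.07 and 0.188 at the starts of Lifr, 0.943 for Il6st, 0.947 for Jak1, 0.769 for Socs3 and 0.545 for Stat3. Lif, the ligand gene, had a ratio of 0.231 with 7 CG dinucleotides. A match or a count of letters describes the window and shows no binding.

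Other genes of the pathway were taken from 4 lists with 58 names, of which 52 had a probe set here and 45 were bright enough to test, and the rest are not analysed here. The test called 4 higher and 7 lower and left 34 uncalled, beside 4.48% higher and 5.50% lower of all tested genes. Their median was -0.01 on the log2 scale, beside 0.04 for all tested genes. The genotypes' arrays did not overlap for 26 of the 45, beside 52.9% of all tested genes.

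**Figure D3:**
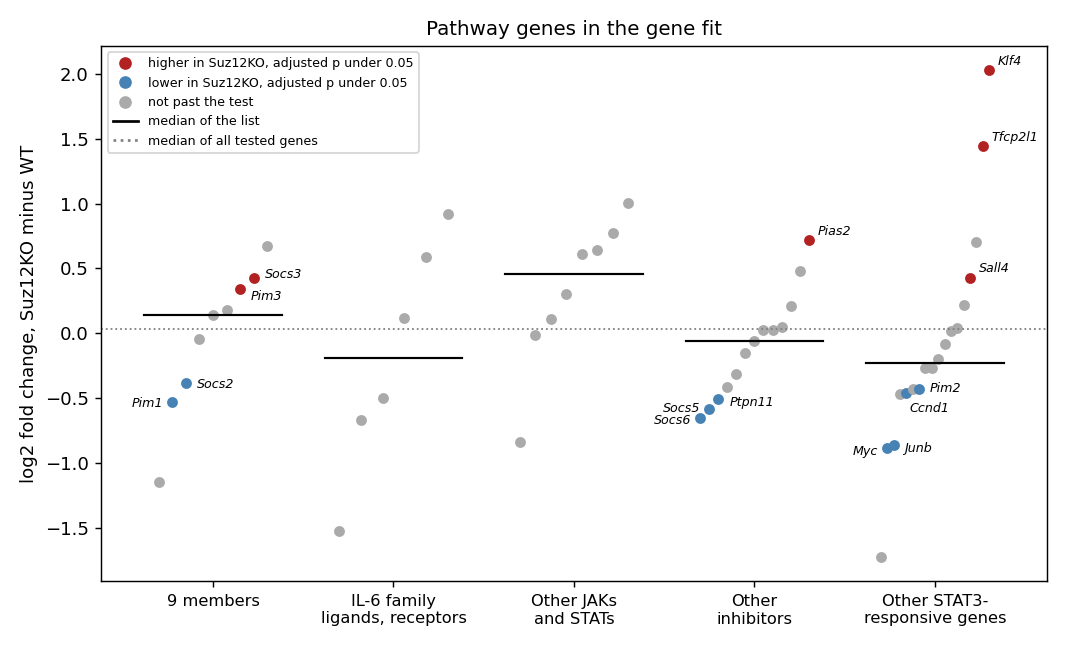
Log2 fold change (Suz12KO minus WT) of the 9 members and of the tested genes of the 4 pathway lists, sorted within each list, with lines at the list medians and at the median of all tested genes (0.04). Calls lie among the members, the inhibitors and the STAT3-responsive genes, where Klf4 reaches 2.03, and none lie among the other ligands, receptors, JAKs and STATs.

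None of 6 tested ligands and receptors of the interleukin-6 family passed the limma test. An unadjusted p under 0.05 was found for 2, beside 2966 of all 12735 tested genes. Cntfr, the receptor for ciliary neurotrophic factor, read 591 and 515 in Suz12KO and 793 and 988 in WT. The difference was -0.67 on the log2 scale (limma adjusted p = 0.0719), which passed after centring (-0.83, adjusted p = 0.0228) and with the mean of its probe sets (-1.05, adjusted p = 0.0408). It was -0.57 without Suz12KO replicate 2 (adjusted p = 0.158) and -0.51 without WT replicate 2 (adjusted p = 0.391). Il6ra, the interleukin-6 receptor, had a log2 fold change of 0.12 (adjusted p = 0.789). It was -0.05 after centring, 0.68 with the mean of its probe sets (adjusted p = 0.248) and 1.23 with suffix-free probe sets (adjusted p = 0.218). Clcf1, a ligand of the same family named here after its values were seen, was within background in Suz12KO (88.3 and 75.4). In WT it was above background (272 and 258), at 1.44-fold the background level of the Suz12KO arrays. The difference did not pass (limma adjusted p = 0.136, 95% interval -2.80 to -0.25 on the log2 scale).

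None of the 8 other Janus kinases and STATs passed the limma test either. An unadjusted p under 0.05 was found for 1, beside 2966 of all 12735 tested genes. The list median was 0.46, and Jak3, Stat2, Stat4 and Stat5a each read within background in 1 array. Stat6, which transmits interleukin-4 signals, read 745 and 548 in Suz12KO and 409 and 328 in WT (0.78, limma adjusted p = 0.106). Tyk2, a further Janus kinase, overlapped between genotypes (0.31, adjusted p = 0.469). With the mean of the probe sets Stat6 was at 0.38 (adjusted p = 0.349) and Tyk2 at 0.81 (adjusted p = 0.157), and Tyk2 ranged from 0.13 to 0.48 when single arrays were left out and was 0.14 after centring. Of the 8, only Stat6 had arrays that did not overlap, beside 52.9% of all tested genes.

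Among 13 tested inhibitors of the pathway, 1 rose and 3 fell, beside 4.48% higher and 5.50% lower of all tested genes. The list's median was -0.06, beside 0.04 for all tested genes. Pias2, a SUMO ligase of the family that restrains STATs, rose to 2656 and 2823 in Suz12KO, against 1542 and 1786 in WT (0.72, SE 0.11, limma adjusted p = 0.0034). The Socs family members Socs5 (-0.58, adjusted p = 0.0389) and Socs6 (-0.65, adjusted p = 0.0478) fell, as did Ptpn11, the phosphatase SHP2, which carries gp130 signals into the ERK pathway (-0.50, adjusted p = 0.0233). Socs5 read 874 and 810 in Suz12KO and 1335 and 1202 in WT. Socs6 read 638 and 795 in Suz12KO and 1202 and 1060 in WT. Socs5 lost its call on leaving out each of the 4 arrays in turn (-0.66 to -0.51) and with the mean of its probe sets (-0.90, adjusted p = 0.171). Quantile normalization, no filter and testing among all probe sets also ended the Socs5 call (adjusted p 0.0513 to 0.0565). Socs6 lost its call without Suz12KO replicate 1 or either WT array (-0.74 to -0.50) and with the mean of its probe sets (-0.19, adjusted p = 0.781). Quantile normalization, no filter, a robust variance model and testing among all probe sets also ended the Socs6 call (adjusted p 0.0504 to 0.0693). Ptpn11 lost its call without Suz12KO replicate 1 (-0.48) or WT replicate 1 (-0.39) and with the mean of its probe sets (-0.23, adjusted p = 0.607). The other Pias2 probe sets, both dimmer, gave 0.29 and 0.18 and did not pass, and the Pias2 call was lost with the mean of the probe sets (0.39, adjusted p = 0.292) and with suffix-free probe sets (0.18, adjusted p = 0.767). With these Socs6 had a log2 fold change of -0.0014 (adjusted p = 0.9997).

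Of 18 tested STAT3-responsive genes, 3 were called higher, 4 lower and 11 not called, beside 4.48% higher and 5.50% lower of all tested genes. The list's median was -0.23, beside 0.04 for all tested genes. The rises were those of the pluripotency factors Klf4, Tfcp2l1 and Sall4. Klf4 read 3247 and 3330 in Suz12KO and 750 and 842 in WT, 2.03 on the log2 scale (SE 0.12, limma adjusted p = 1.28e-05). Tfcp2l1, a direct STAT3 target in embryonic stem cells, read 1469 and 906 in Suz12KO and 435 and 395 in WT (1.44, SE 0.24, adjusted p = 0.0055), and Sall4 changed by 0.43 (adjusted p = 0.0024). After centring Sall4 changed by 0.26 and lost its call (adjusted p = 0.0724), and with the mean of the probe sets both Sall4 (adjusted p = 0.0977) and Tfcp2l1 (adjusted p = 0.153) lost theirs.

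The falls in the same list included Myc, Junb, Ccnd1 and Pim2. Myc, which drives cell growth, read 1152 and 1615 in Suz12KO and 2512 and 2535 in WT, or -0.88 on the log2 scale (SE 0.15, limma adjusted p = 0.0064). Junb, an AP-1 subunit and immediate early STAT3 target, read 506 and 442 in Suz12KO and 769 and 990 in WT (-0.86, SE 0.21, adjusted p = 0.0341). Ccnd1, the cyclin of G1 phase, changed by -0.46 (adjusted p = 0.0052). Pim2, the remaining Pim kinase and named after its values were seen, read 2442 and 2465 in Suz12KO and 3391 and 3210 in WT (-0.42, SE 0.09, adjusted p = 0.0150). Of the 3 Pim genes, Pim1 and Pim2 fell and Pim3 rose, and the rise did not pass after centring. The Junb call was lost without Suz12KO replicate 2 or either WT array (adjusted p 0.0510 to 0.260), and that of Pim2 without either WT array (adjusted p 0.102 and 0.0510). Cebpd, also named after its values were seen, was within background in both Suz12KO arrays. Its WT signal was 1.94-fold the background level of those arrays. The difference did not pass (limma adjusted p = 0.0693, 95% interval -2.88 to -0.57 on the log2 scale).

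Outside the lists, the genes closest to Pim1 in pattern were Rnf139, Ctsl and Cdc42se1, by Euclidean distance between mean-centred log2 values over the 4 arrays (0.04, 0.05 and 0.05). All were picked for likeness to Pim1 over these same arrays, so their falls in Suz12KO follow from that choice and are no separate support. Rnf139, the closest, was at -0.55 on the log2 scale and did not pass (limma adjusted p = 0.0568). Cdc42se1 was at -0.52 (adjusted p = 0.0179). Ctsl, which encodes a lysosomal cysteine protease, read 5696 and 6013 in Suz12KO and 8167 and 8567 in WT (-0.51, adjusted p = 0.0013). The Ctsl call was lost with the mean of its probe sets (-0.60, adjusted p = 0.0855) and with suffix-free probe sets (-0.69, adjusted p = 0.526).

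**Figure D4:**
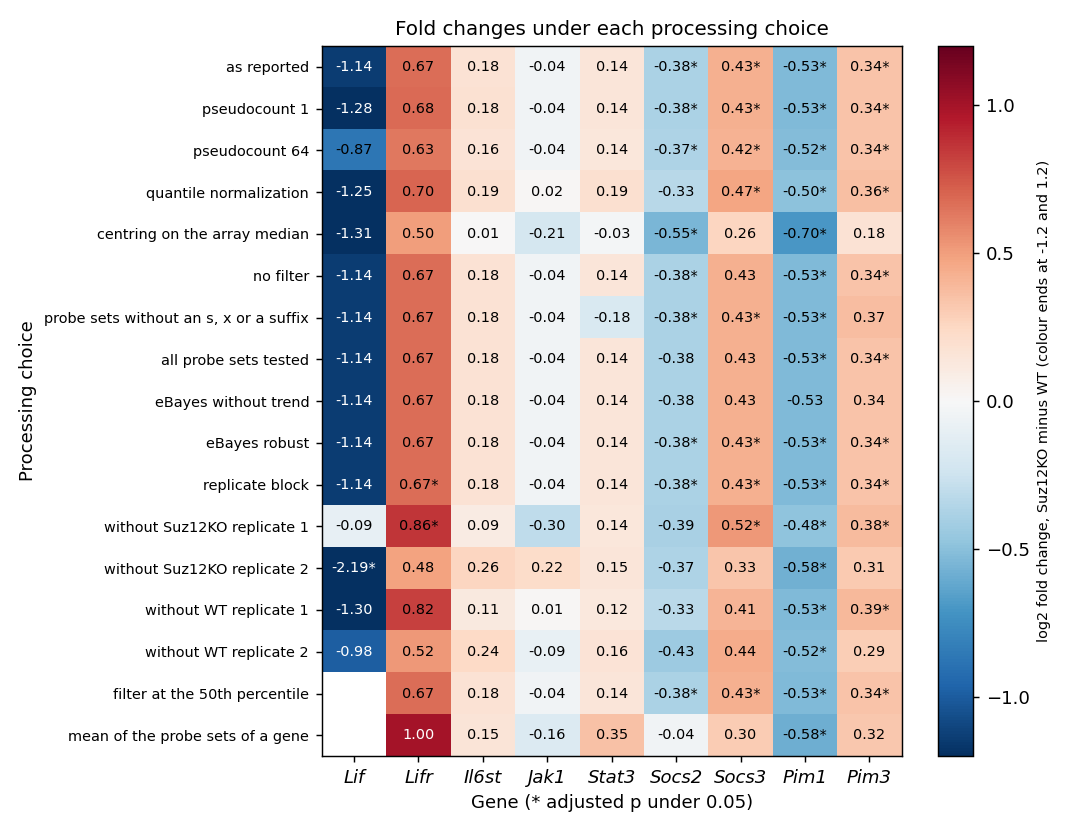
Log2 fold change (Suz12KO minus WT) of the 9 genes as reported and under each of 16 other processing choices, with an asterisk at an adjusted p under 0.05 and blank cells where Lif was too dim to be tested. Pim1 is negative throughout and called in all but the fit without trend, Socs2 is negative and Socs3 and Pim3 are positive throughout but called less evenly, and Jak1 and Stat3 change sign.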

How the data were processed

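The authors deposited a linear intensity per array for each of 45101 probe sets (4 arrays). After trimming 2% of values at each end, its mean was 500.003 in each array, so the deposited intensity had been scaled. The sources used here name no summarisation software, and target synthesis followed the supplier's method, per the labels' protocols. A shift common to nearly all genes is removed by such scaling.

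Symbols came from the platform annotation. Values were taken as log2(signal + 16), which understates changes of dim genes. The probe set of highest mean represented each gene, and only genes (or probe sets) above the 30th percentile of mean level were tested. The comparison of Suz12KO with WT used limma 3.58.1 in R 4.3.3 (lmFit and trended eBayes, two-sided). P-values were adjusted by Benjamini-Hochberg across 12735 genes or 24461 probe sets, with calls under 0.05. Background was the highest of 27 unused spike probe sets per array. Where a genotype lay within background in both arrays and the other above it, the other's mean log2 signal was set against it as a fold. Such a fold takes no account of the spread between arrays. The procedure was also run on simulated data, with independent noise drawn from the variance model fitted here. That run cannot show how repeats of the same RNA mix or the scaling affect the calls.

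The members and lists were chosen with earlier results of these data known. Named genes were the members, up to 3 rises and 3 falls called per pathway list (otherwise its 2 brightest), the 2 brightest tested genes per marker list, Suz12 and the 3 genes most like the best-called member, without clone or predicted gene names. Alternatives were other pseudocounts, scalings, filters, probe set choices and variance models, a replicate block, and leaving out each array; their use on the marker list counts, Lama1 and Tfap2c was chosen after seeing the data. Figures used matplotlib 3.10.9 in Python 3.11.15.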

Additional observations from a re-analysis of the deposited data

How the results depend on the processing

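Without a mean-variance trend limma called 0 genes (2332 at an unadjusted p under 0.05), 0 probe sets and therefore 0 members higher, 0 lower and 0 pathway genes; the cause was not tested. Averaging each gene's probe sets, dim ones included, gave other counts: 611 genes, 5 pathway genes, 0 members higher and 1 lower (Pim1) were called, against 1270, 11, 2 and 2. Members called higher numbered 0 after centring and 1 without a filter, without suffixed probe sets or among all probe sets, and members called lower numbered 1 under quantile normalization or among all probe sets. Without suffixes 1078 probe sets were called, from fewer tested, against 1667. Leaving out single arrays gave 798 to 1196 genes, 0 to 3 members higher, 1 to 2 lower, 6 to 10 pathway genes and 1189 to 1563 probe sets, with the lone array of a genotype assumed to vary like the other genotype; the fewest genes came without WT replicate 2.

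Replicate numbers are shared but pair nothing in the labels, and deviations of same-numbered arrays correlated at 0.02. With the replicate block, which leaves 1 residual degree of freedom, 2098 genes and 2736 probe sets were called, and Lifr joined the members called (adjusted p = 0.0173).

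Signs turned for Jak1 under quantile normalization (0.0161) and leaving out single arrays (-0.30 to 0.22), for Stat3 after centring (-0.0261) and without suffixed probe sets (-0.18), and for Il6ra after centring (-0.0480) and leaving out single arrays (-0.0417 to 0.28). Among further probe sets they turned for Il6st 1421239_at under quantile normalization (-0.0131), centring (-0.12) and leaving out single arrays (-0.0446 to 0.13), for Il6st 1437303_at after centring (-0.0558) and leaving out single arrays (-0.10 to 0.32), and for Socs2 1418507_s_at under quantile normalization (0.0231) and leaving out single arrays (-0.11 to 0.0501). Leaving out single arrays also turned Socs3 1456212_x_at (-0.0017 to 0.38) and Pim3 1438956_x_at (-0.12 to 0.62). The cause was not tested. Pim1, Socs2, Socs3, Pim3, Lif, Lifr and Il6st kept their sign in every alternative run on their brightest probe set. Lif could not be tested with averaged probe sets or a filter at the 50th percentile.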

Other observations

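Markers of other lineages moved in both directions beside the signalling genes, against 4.48% of all tested genes called higher and 5.50% called lower. Of 8 tested endoderm genes 1 rose and 1 fell, with a list median of -0.15. The rise was that of Lama1, a laminin chain of the basement membrane named after its values were seen, which read 1417 and 1134 in Suz12KO and 238 and 247 in WT (2.31, limma adjusted p = 0.00022). Sparc, a matrix protein gene, fell by 0.59 (adjusted p = 0.00032), and the call was lost with the mean of its probe sets (-0.36, adjusted p = 0.0927). Col4a1, a basement membrane collagen, was at -0.26 (adjusted p = 0.0881) and passed after centring (-0.43, adjusted p = 0.0185).

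Of 5 tested neural genes 2 fell, namely Nes (-1.41) and Sox11 (-2.27). The Nes call was lost with the mean of its probe sets (-0.77, adjusted p = 0.165 by limma).

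Of 6 tested trophoblast genes 1 rose and 2 fell, with a list median of 0.63. Krt8 (-1.91) and Krt18 (-1.43), keratins of simple epithelia, fell. Krt8 read 3911 and 3804 in Suz12KO and 14549 and 14513 in WT, and Krt18 read 6098 and 6465 in Suz12KO and 17422 and 16555 in WT. The other 4 tested genes all read higher in both Suz12KO arrays than in both WT arrays, beside 29.0% of all tested genes. Their log2 fold changes were 0.54 to 0.87, and Cdx2 was within background in WT replicate 2 (140). Of the 4, only Tfap2c, a transcription factor gene named after its values were seen, passed (0.72, limma adjusted p = 0.0381). Its call was lost without Suz12KO replicate 1 or either WT array (adjusted p 0.0565 to 0.166) after centring (0.55, adjusted p = 0.0778), without a filter on dim genes (adjusted p = 0.0575) and among all probe sets (adjusted p = 0.0504).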
